A study of Homo sapiens with 6 samples.

Results

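The genes described here act in protein folding, quality control and the unfolded protein response of the endoplasmic reticulum (ER). They are 51 genes, taken by name, of the 11846 genes in the deposited expression table, and were compared between ANXA2P1 knockdown and control AGS cells. AGS is an epithelial line grown from a stomach tumour, an adenocarcinoma, and ANXA2P1 is a processed pseudogene of ANXA2, the gene of annexin A2. Poly(A) RNA was sequenced from 3 knockdown and 3 control libraries, which the labels call biological replicates. The knockdown libraries carry the label ANXA2P1 knockdown, with ANXA2P1-shRNAp named in the transfection protocol. The control libraries were transfected with scr-shRNA, a scrambled short hairpin RNA. The labels thus name a short hairpin RNA, while the study's methods describe CRISPR interference, and all libraries come from this 1 line under the same serum-containing culture.

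The ER is where secreted and membrane proteins enter the secretory route and fold. Nascent chains pass through the SEC61 channel, are bound by chaperones such as BiP (HSPA5), calnexin and calreticulin, and receive disulphide bonds from protein disulphide isomerases. Chains that do not fold are drawn back to the cytosol by VCP and degraded by the proteasome, a route called ER-associated degradation. When unfolded proteins pile up, the sensors IRE1 (ERN1), PERK (EIF2AK3) and ATF6 start the unfolded protein response, in which spliced XBP1 and cleaved ATF6 raise the transcription of chaperone and degradation genes. Secretory cells of the stomach depend on this route for mucins and digestive proenzymes.

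Recovered reads lay between 19010940 and 21467162 in the knockdown libraries and between 21103051 and 22911995 in the control libraries. Values are FPKM (fragments per kilobase of gene, scaled to library depth), and tests were made with limma on log2(FPKM + 0.1), a scale that understates changes of low genes. The level of the targeted pseudogene was not analysed here, so no check of the labels rests on it. The sources do not state whether both groups were prepared together. A batch that follows the groups and the knockdown cannot be told apart. All 6 markers of simple epithelium were in the table, with a summed level of 1498 to 1692 FPKM in knockdown and 1432 to 1527 FPKM in control libraries. Of 8 stomach markers 4 were present, at 4.80 to 8.33 FPKM in knockdown and 4.14 to 7.16 FPKM in control libraries summed. MUC5AC, MUC6, GKN1 and GKN2 were not among them. Of the 9 fibroblast and endothelial markers only COL1A1 was found, and none of the 7 blood markers.

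Knockdown library 1 stood apart from the other 5. It was the highest or the lowest of the 6 libraries for 30 of the 50 members tested (60.0%) and for 64.3% of all genes tested. Its median absolute distance from the median of the other libraries was 0.16 over the members and 0.17 over all genes on the log2 scale. In the other 5 libraries that distance lay between 0.042 and 0.097 over the members.

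None of the members passed the test across all genes. Of the 51 members, 50 had a mean of at least 0.5 FPKM and were tested. CRELD1, an ER membrane protein, fell under that filter, with 71 to 112 recovered reads per library, and was left out. At an adjusted p of 0.05 the count of members was 0, beside 14 of 10813 genes tested, or 0.129%. At an unadjusted p under 0.05 there were 5 members, 4 higher and 1 lower in the knockdown, beside 10.6% of all genes tested. Over all genes tested, 509 were higher and 640 were lower at that p. The count without adjustment is thus 10.0% of members, close to the background. Without knockdown library 1 the adjusted p called 255 genes, without knockdown library 3 it called 5, and with any other library left out it called 0, and members were 0 each time. The count of members at an unadjusted limma p under 0.05 was 11 without knockdown library 3, 7 without knockdown library 1, 3 without control library 1, and 1 with any other library left out.

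By a fold threshold, taken here as more than 1.2-fold together with an unadjusted p under 0.05, 1 member was higher (FICD) and 0 were lower in the knockdown. Of all genes tested, 1.54% were higher and 3.35% were lower by that rule. Without knockdown library 1 the members were 2 higher (FICD and CREB3L2) and 1 lower (ERN1), and without knockdown library 3 they were 3 higher (FICD, CREB3 and EDEM2) and 1 lower (SEC63). Knockdown and control libraries did not overlap for 8 members, 7 higher and 1 lower, beside 19.0% of all genes tested. The median log2 fold change was 0.030 over the members, with values from −0.26 to 0.47, and 0.010 over all genes tested. Of the members 30 were positive (60.0%), beside 53.1% of all genes. Exons of 25 members overlap exons of genes on the other strand, and 7 members have annotated pseudogene copies, so their reads may be mixed with those of other genes. In such bulk libraries, fewer cells that express a gene and less of its RNA per cell cannot be told apart. Values scaled to library depth do not show the number of cells or the total RNA per cell.

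**Figure D1:**
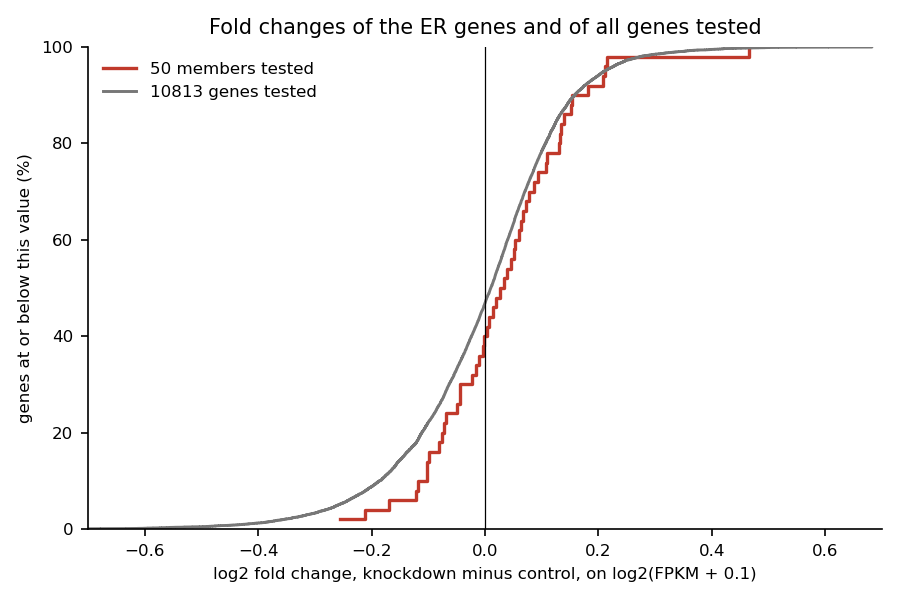
Cumulative share of genes (vertical axis, %) by log2 fold change, knockdown minus control, on log2(FPKM + 0.1) (horizontal axis), for the 50 members tested (red) and the 10813 genes tested (grey). The member line runs slightly to the right of the grey one, with medians of 0.030 and 0.010, and its last step is FICD at 0.47.

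The measurement was close enough to bound most members. The 95% interval of the log2 fold change lay inside 1.5-fold either way for 49 of 50 members (98.0%), beside 92.7% of all genes tested. FICD was the member whose interval reached past it. The standard error (SE) had a median of 0.080 and ran from 0.057 to 0.14. Members had a larger SD over the knockdown than over the control libraries in 36 of 50 cases, with median SDs of 0.11 and 0.057 on the log2 scale. These SDs were not compared over all genes. Knockdown library 1 stood apart for all genes too, at a median distance of 0.17, beside 0.16 over the members. Without knockdown library 1 the median log2 fold change of the members was 0.043.

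**Figure D2:**
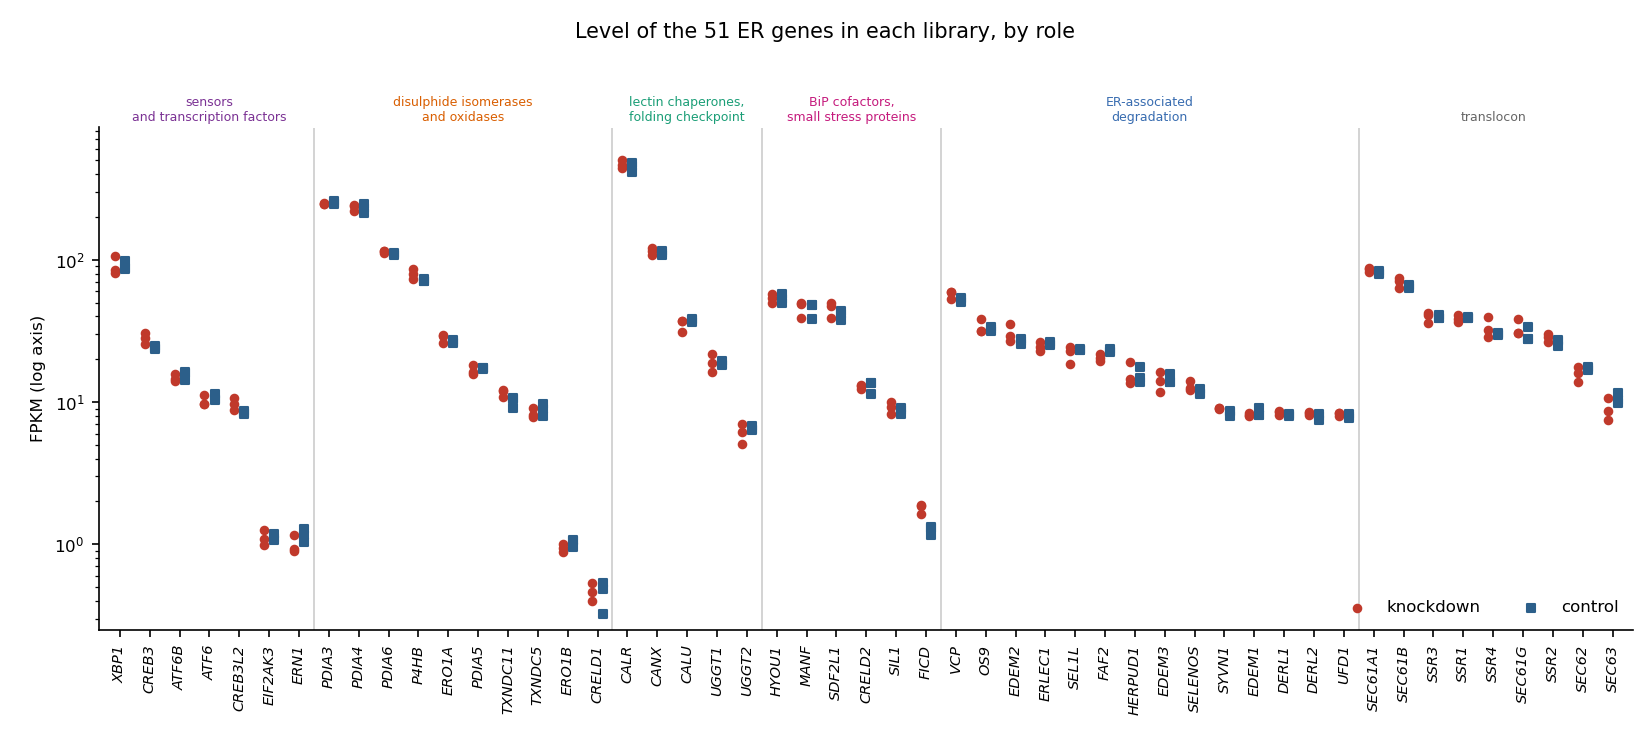
Level of each of the 51 members in every library (vertical axis, FPKM on a log axis), grouped by role and ordered by mean level, with knockdown libraries as red circles left of control libraries as blue squares. CALR was the most abundant member with a mean of 460.0 FPKM and CRELD1 the least abundant with 0.459 FPKM, and the groups overlap for most members.

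FPKM are scaled by gene length, so levels of different genes depend on the lengths used, which were not given. In knockdown library 1, ERN1 had 447 recovered reads at 1.15 FPKM and EIF2AK3 had 416 at 0.994 FPKM. Their GENCODE exon lengths are 10864 and 5434 bases, so the lengths behind the FPKM cannot match these for both. The ranks and orders below hold for the deposited FPKM. The members ranged from 0.459 to 460.0 FPKM as means of the 6 libraries, with a median of 21.8 FPKM, against 6.64 FPKM for all genes in the table. CALR (calreticulin) ranked 39 among all genes, PDIA3 94 and PDIA4 103, and HSPA5, the gene of BiP, ranked 88. With PDIA6 and CANX, 5 members lay above 100 FPKM. The sensors ERN1 and EIF2AK3, FICD, ERO1B and CRELD1 were the 5 members under 2 FPKM. PDIA3, at 245.4 to 258.1 FPKM over the 6 libraries, lay just above PDIA4, at 214.0 to 244.6 FPKM. ERN1 and EIF2AK3 overlapped and had no order on that scale.

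Promoters of genes that answer ER stress often hold the ER stress element, bound by NF-Y together with ATF6 or XBP1. It was searched on both strands as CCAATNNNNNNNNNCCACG in the RefSeq promoters (GRCh38.p14), each with 250 bases before and 50 bases after a start site. Of the 48 members with a promoter there, 7 held it (14.6%), beside 0.0916% of 27305 genes. They were FICD, XBP1, CALR, CRELD2, PDIA6, CANX and ERO1B. A second form, ATTGGNCCACG, was found in HERPUD1, HYOU1 and SDF2L1 (6.25%, beside 0.0696% of genes). The XBP1-type element TGACGTGG was found in 7 members (14.6%, beside 0.927% of genes), and in HYOU1 it overlapped the second form. A match is a description of letters and not a site shown to be bound. Windows of CANX (log2 fold change 0.033), ERO1B (−0.12) and another match of the second form in HYOU1 were left out. The windows of 8 members are shown, so that FICD, with the highest fold change, can be read beside other members that hold either element. Each reads 5′ to 3′ on the strand of the gene, and capitals mark the fixed letters of the element, in either orientation.
FICD, chr12:108515108-108515156, plus strand: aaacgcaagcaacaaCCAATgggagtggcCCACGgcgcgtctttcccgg
XBP1, chr22:28800588-28800636, minus strand: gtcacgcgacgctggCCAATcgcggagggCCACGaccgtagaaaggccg
CALR, chr19:12938369-12938417, plus strand: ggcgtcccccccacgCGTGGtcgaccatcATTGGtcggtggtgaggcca
CRELD2, chr22:49918539-49918587, plus strand: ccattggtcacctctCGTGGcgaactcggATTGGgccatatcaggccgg
PDIA6, chr2:10812838-10812886, minus strand: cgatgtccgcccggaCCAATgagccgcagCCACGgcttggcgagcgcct
HERPUD1, chr16:56932010-56932050, plus strand: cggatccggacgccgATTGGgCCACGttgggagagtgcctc
HYOU1, chr11:119057365-119057405, minus strand: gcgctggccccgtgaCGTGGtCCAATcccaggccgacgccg
SDF2L1, chr22:21642099-21642139, plus strand: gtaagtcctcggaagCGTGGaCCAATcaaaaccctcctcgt

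The 10 members with either ER stress element had a median log2 fold change of 0.030, and 8 were positive. The 37 tested members whose promoters held neither had a median of 0.020, and 20 were positive. Of all genes tested, 53.1% were positive. Apart from FICD at 0.47, the members with an element ran from −0.12 (ERO1B) to 0.13 (SDF2L1), with a median of 0.026 over 9 genes. The 7 members with the XBP1-type element ran from −0.12 (SEC62) to 0.21 (TXNDC11), with a median of 0.014. Genes with the element thus lay on both sides of zero, and none of them passed the adjusted p.

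Among the 7 sensors and transcription factors, 2 had an unadjusted p under 0.05 (28.6%, beside 10.6% of all genes tested) and 0 passed the adjusted p (0.129% of all genes tested). The median log2 fold change of the list was −0.0098. CREB3 and CREB3L2 were the 2, both higher in the knockdown, while the 3 sensors and XBP1 had values below zero, those of XBP1 and EIF2AK3 turning above zero when the libraries were given unequal weights (array weights).

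XBP1, the transcription factor that IRE1 activates by splicing its mRNA, maps to chromosome 22, bases 28794555 to 28800597 of the minus strand (hg38, GENCODE release 29). It had 106, 80.5 and 85.0 FPKM in knockdown libraries 1, 2 and 3, against 86.4, 98.0 and 87.4 FPKM in control libraries 1, 2 and 3. Knockdown library 1 was the highest of the 6 and the other knockdown libraries were the lowest. The means were 90.5 ± 13.6 FPKM in the knockdown and 90.6 ± 6.41 FPKM in the control (SD, n = 3 each), with a log2 fold change of −0.0098 and a 95% interval from −0.26 to 0.24. Gene-level FPKM do not separate spliced from unspliced XBP1, and a pseudogene copy, XBP1P1, is annotated, with which reads could be shared.

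ERN1, the gene of the sensor IRE1, had 1.15, 0.898 and 0.928 FPKM in the knockdown libraries, against 1.16, 1.28 and 1.04 FPKM in the control libraries. Its log2 fold change of −0.21 (SE 0.13) was the lowest of the list, with an unadjusted limma p of 0.150 and an adjusted p of 0.621. The groups overlapped through knockdown library 1, and without it the value was −0.31, with an adjusted p of 0.260. ATF6, the sensor that is cut in the Golgi to release a transcription factor, had 11.2, 9.73 and 9.69 FPKM in the knockdown and 10.5, 11.3 and 10.4 FPKM in the control libraries. This gave a log2 fold change of −0.072 (95% interval −0.26 to 0.11), again with knockdown library 1 above the other knockdown libraries. EIF2AK3, the gene of PERK, which slows translation by phosphorylating eIF2α, had 0.994, 1.08 and 1.27 FPKM in the knockdown libraries, against 1.07, 1.17 and 1.10 FPKM in the control libraries. EIF2AK3 thus had a log2 fold change of −0.0043 (95% interval −0.28 to 0.27), and here knockdown library 1 was the lowest of the 6.

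CREB3 encodes a membrane-bound transcription factor of the ER that is released by the same Golgi proteases as ATF6. It maps to chromosome 9, bases 35732335 to 35737004 of the plus strand. It had 30.7, 28.1 and 25.5 FPKM in the knockdown libraries, against 24.7, 23.5 and 24.2 FPKM in the control libraries. All knockdown libraries lay above all control libraries. CREB3 had a log2 fold change of 0.22 (SE 0.077), with an unadjusted p of 0.0233 and a limma adjusted p of 0.379. The value of CREB3 was 0.15 without knockdown library 1 and 0.28 without knockdown library 3. Its exons share 200 bases with genes on the other strand, GBA2 and TLN1, and it is not stated whether the counting used strand.

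CREB3L2, a relative of CREB3 known for driving secretory genes in cartilage of the mouse, maps to chromosome 7, bases 137874979 to 138002067 of the minus strand. It had 8.79, 9.63 and 10.8 FPKM in the knockdown libraries, against 8.19, 8.58 and 8.31 FPKM in the control libraries. The groups did not overlap, although knockdown library 1 was close to the highest control library. The log2 fold change was 0.21 (SE 0.083), with an unadjusted p of 0.0349 and a limma adjusted p of 0.423. Without knockdown library 1 it was 0.28, with an adjusted p of 0.0666, and without knockdown library 3 it was 0.14. ATF6B, the close relative of ATF6, had a log2 fold change of −0.069.

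**Figure D3:**
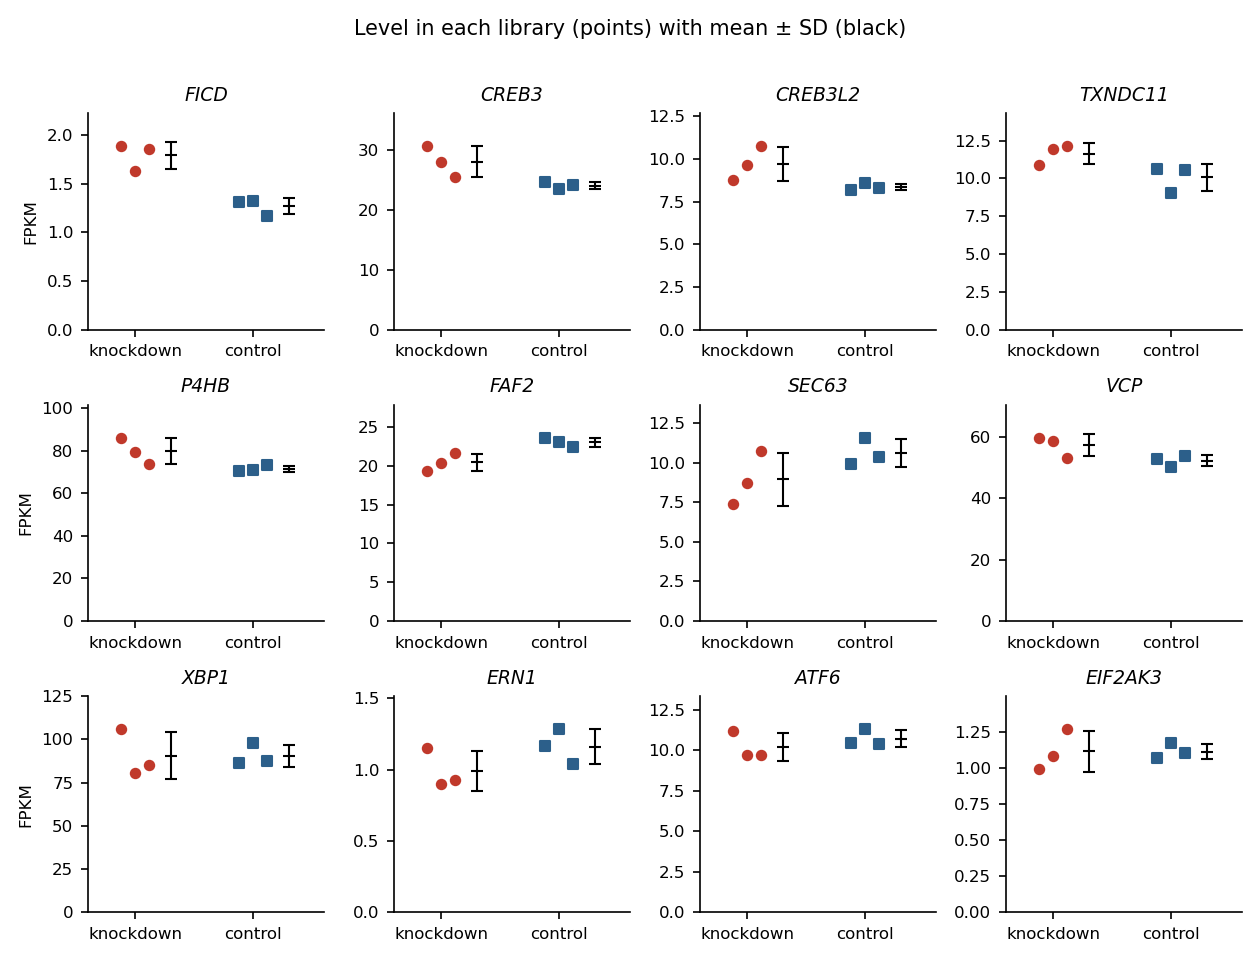
Level of 12 members in each library (vertical axes, FPKM, each starting at 0), with knockdown libraries as red circles left of control libraries as blue squares and the mean ± SD in black. FICD, CREB3, CREB3L2, TXNDC11, P4HB and FAF2 have groups that do not overlap, while SEC63, VCP, XBP1 and the sensors ERN1, ATF6 and EIF2AK3 overlap.

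Of the 10 disulphide isomerases and oxidases 9 were tested, with a median log2 fold change of 0.020. None passed the adjusted p, and 1, TXNDC11, had an unadjusted p under 0.05 (11.1%, beside 10.6% of all genes tested). Their groups did not overlap for TXNDC11, P4HB and PDIA6, each higher in the knockdown. These are 33.3% of the list, beside 19.0% of all genes tested.

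TXNDC11, a thioredoxin-domain protein of the ER membrane that works with the EDEM enzymes, maps to chromosome 16, bases 11679080 to 11742878 of the minus strand. It had 10.9, 11.9 and 12.1 FPKM in the knockdown libraries, against 10.6, 9.03 and 10.6 FPKM in the control libraries. Control library 2 was the lowest, and the gap between the groups was small beside the spread within the control. The log2 fold change was 0.21 (SE 0.085), with an unadjusted p of 0.0406 and a limma adjusted p of 0.441. Without control library 2 the value was 0.13. P4HB, the gene of protein disulphide isomerase itself, had 86.1, 79.4 and 73.7 FPKM in the knockdown libraries, against 70.7, 70.7 and 73.3 FPKM in the control libraries. P4HB had a log2 fold change of 0.15 (SE 0.072), with an unadjusted p of 0.0640 and a limma adjusted p of 0.496. Its value without knockdown library 1, the highest of the 6, was 0.097.

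PDIA4, an isomerase and a usual target of the unfolded protein response, had 236.9, 241.2 and 220.4 FPKM in the knockdown libraries, against 230.8, 214.0 and 244.6 FPKM in the control libraries. The groups overlapped over nearly their whole ranges, and the log2 fold change was 0.020 (95% interval −0.15 to 0.19). ERO1B, an oxidase that recharges the isomerases, was the lowest of the list at −0.12, with 0.889, 0.940 and 1.00 FPKM in the knockdown libraries, against 0.965, 1.06 and 1.07 FPKM in the control libraries. The groups overlapped, with 52 to 65 reads per knockdown library and 66 to 75 reads per control library. PDIA6, PDIA3, PDIA5, TXNDC5 and ERO1A had log2 fold changes from −0.081 to 0.093. CRELD1 had 0.464, 0.403 and 0.538 FPKM in the knockdown libraries, against 0.324, 0.539 and 0.484 FPKM in the control libraries, and was not tested.

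The 5 lectin chaperones and folding checkpoint genes had a median log2 fold change of 0.0042. Of them 0 had an unadjusted p under 0.05, beside 10.6% of all genes tested. The lectins among them, calnexin and calreticulin, hold glycoproteins in the folding cycle by binding their trimmed sugars. CALR, the soluble lectin calreticulin, had 465.5, 500.0 and 443.0 FPKM in the knockdown libraries, against 458.9, 413.3 and 479.6 FPKM in the control libraries. It was the highest of the list at 0.060 (95% interval −0.13 to 0.25), and both groups spanned nearly the same range. CANX, its membrane-bound relative calnexin, had 107, 116 and 120.3 FPKM in the knockdown libraries, against 116, 108 and 111 FPKM in the control libraries. CANX had a log2 fold change of 0.033 (95% interval −0.12 to 0.19), with knockdown library 1 the lowest of the 6.

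UGGT2, a relative of the glucosyltransferase UGGT1 that returns misfolded glycoproteins to calnexin, had 5.10, 6.20 and 7.07 FPKM in the knockdown libraries, against 6.36, 6.77 and 6.46 FPKM in the control libraries. It was the lowest of the list at −0.10 (95% interval −0.37 to 0.16). The value rested on knockdown library 1, and without that library it was 0.020. UGGT1 and the calcium-binding protein gene CALU had 0.0042 and −0.099.

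All 6 BiP cofactors and small stress proteins had a positive log2 fold change in the fit with equal weights, but 1 of 6 did with array weights and 3 of 6 did without knockdown library 2 or without control library 2. Of all genes tested, 53.1% were positive. The median of the list was 0.053, and 1 gene had an unadjusted p under 0.05 (16.7%, beside 10.6% of all genes tested). That gene was FICD, the highest of all members, and the others ran from 0.0074 to 0.13. Their library medians against the control mean were 0.12, 0.13 and −0.016 in knockdown libraries 1, 2 and 3, and 0.062, −0.11 and 0.053 in control libraries 1, 2 and 3. Knockdown library 3 and the control libraries thus overlapped for the list.

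FICD encodes the ER enzyme that attaches AMP to BiP and takes it off again, and so sets how much BiP is active. It maps to chromosome 12, bases 108515185 to 108525837 of the plus strand, just after the promoter element shown above. It had 1.88, 1.63 and 1.86 FPKM in the knockdown libraries, against 1.31, 1.32 and 1.17 FPKM in the control libraries. Every knockdown library lay above every control library, at 159, 155 and 174 recovered reads in the knockdown and 129, 124 and 119 in the control. The means were 1.79 ± 0.139 FPKM in the knockdown and 1.27 ± 0.0832 FPKM in the control (SD, n = 3 each).

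The log2 fold change of FICD was 0.47 (SE 0.10, 95% interval 0.23 to 0.70), or 1.38-fold. Its unadjusted p was 0.00196 and its limma adjusted p 0.142, so it did not pass over all genes. The direction was the same without any 1 library, with values from 0.41 to 0.53 and adjusted p from 0.0863 to 0.575. Its exons share 21 bases with SART3 on the other strand. FICD was the member with the fewest reads among those with a p under 0.05, and the next value among members with an ER stress element was 0.13 for SDF2L1.

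HYOU1, a large chaperone that releases ADP from BiP, had 49.97, 57.2 and 53.7 FPKM in the knockdown libraries, against 52.7, 49.5 and 57.2 FPKM in the control libraries. HYOU1 had a log2 fold change of 0.014 (95% interval −0.17 to 0.20), and the groups covered the same range. SDF2L1, a small cofactor of the BiP system that is strongly induced by ER stress, had 47.1, 49.4 and 39.1 FPKM in the knockdown libraries, against 43.9, 37.8 and 41.6 FPKM in the control libraries. For SDF2L1 this was a log2 fold change of 0.13 (95% interval −0.098 to 0.36), with knockdown library 3 inside the control range. The value was 0.065 without knockdown library 2, 0.23 without knockdown library 3 and 0.074 without control library 2. CRELD2, a stress-induced ER protein, was the lowest of the list at 0.0074, with 13.3, 13.1 and 12.4 FPKM in the knockdown libraries, against 13.6, 11.4 and 13.6 FPKM in the control libraries. The nucleotide exchange factor SIL1 and the secreted stress protein MANF had 0.067 and 0.039.

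**Figure D4:**
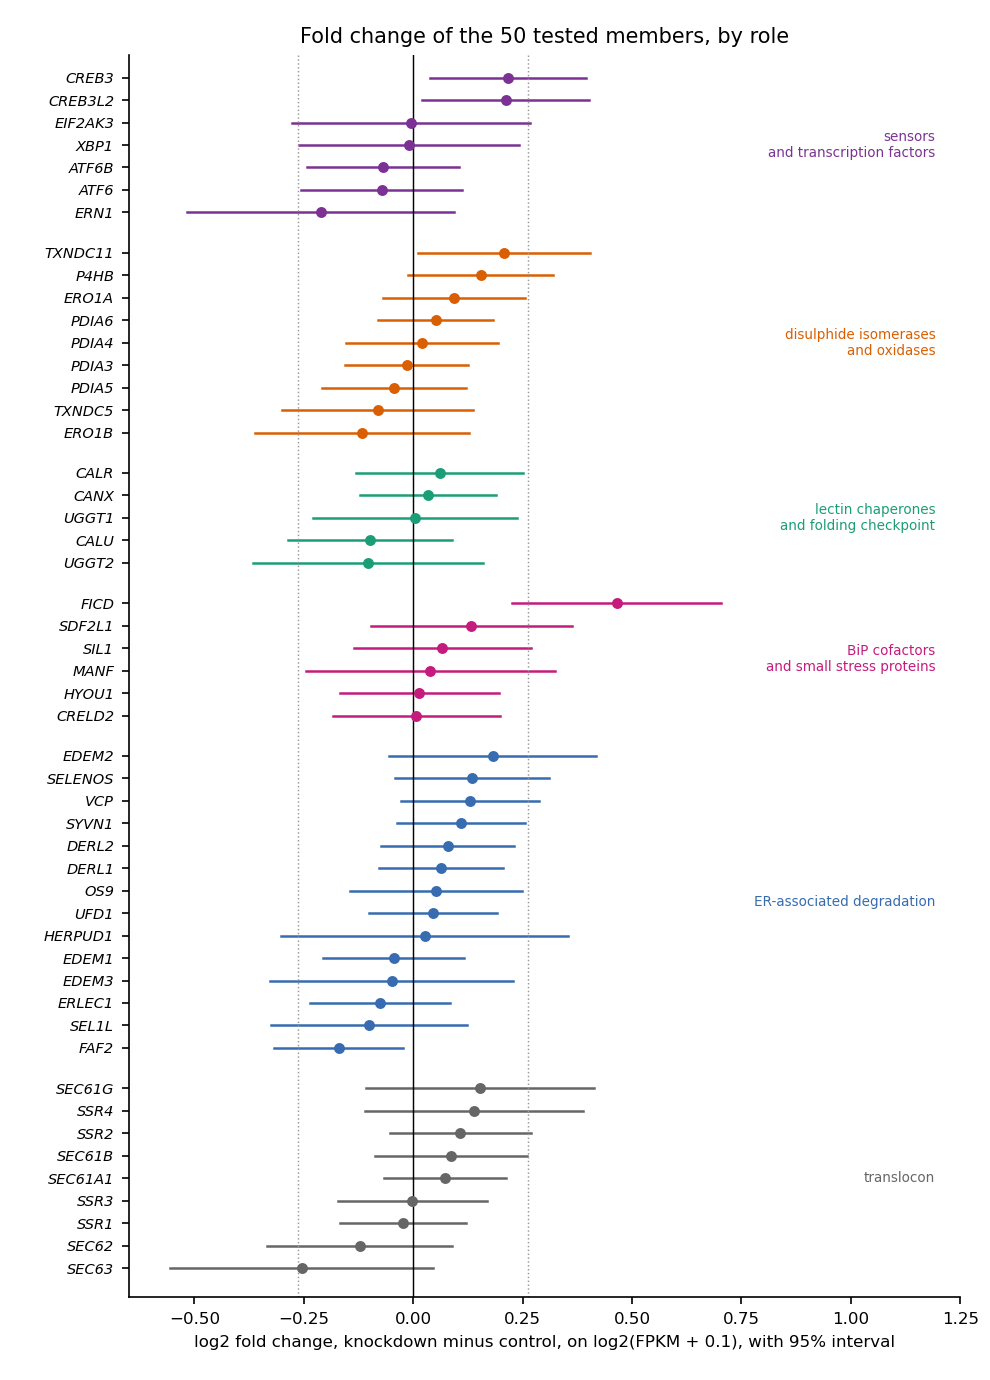
Log2 fold change, knockdown minus control (horizontal axis, on log2(FPKM + 0.1)), of the 50 members tested, grouped and coloured by role, with 95% intervals from limma as lines and 1.2-fold either way as dotted lines. FICD at 0.47 is the member past the dotted line on the right, and the intervals of FICD, CREB3, CREB3L2, TXNDC11 and FAF2 leave out zero before adjustment.

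The 14 genes of ER-associated degradation had a median log2 fold change of 0.049, with 9 positive (64.3%, beside 53.1% of all genes tested) and 5 negative. None passed the adjusted p, and 1, FAF2, had an unadjusted p under 0.05 (7.14%, beside 10.6% of all genes tested). The list holds the mannosidase-like EDEM proteins that mark glycoproteins, the lectins OS9 and ERLEC1, the membrane ligase SYVN1 with its partner SEL1L, and the extraction machinery around VCP.

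FAF2, a membrane-anchored protein that recruits VCP to the ER, maps to chromosome 5, bases 176447628 to 176510074 of the plus strand. It had 19.4, 20.4 and 21.6 FPKM in the knockdown libraries, against 23.6, 23.0 and 22.4 FPKM in the control libraries. It was the only member with every knockdown library below every control library. The log2 fold change was −0.17 (SE 0.064), with an unadjusted p of 0.0282 and a limma adjusted p of 0.394. With a library left out the value of FAF2 ran from −0.21 to −0.13. With array weights it was −0.12, with an unadjusted limma p of 0.13. A pseudogene copy, FAF2P1, is annotated. VCP, the ATPase that pulls substrates out of the membrane, had 59.8, 58.9 and 53.3 FPKM in the knockdown libraries, against 52.8, 50.4 and 53.8 FPKM in the control libraries. VCP had a log2 fold change of 0.13 (SE 0.068), with a limma adjusted p of 0.546, and 0.051 with array weights.

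The ligase and its partner did not move one way. SYVN1, also known as HRD1, had 9.05, 8.99 and 9.08 FPKM in the knockdown libraries, against 7.97, 8.67 and 8.49 FPKM in the control libraries. The groups did not overlap, and the log2 fold change was 0.11 (SE 0.063, limma adjusted p = 0.586). SEL1L had 18.6, 22.9 and 24.3 FPKM in the knockdown libraries, against 23.4, 23.7 and 23.1 FPKM in the control libraries. SEL1L had a log2 fold change of −0.10 (95% interval −0.33 to 0.12), which knockdown library 1 set, and without that library it was 0.011.

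HERPUD1, a membrane protein strongly induced by ER stress, had 19.2, 13.5 and 14.5 FPKM in the knockdown libraries, against 13.7, 17.6 and 14.7 FPKM in the control libraries. It had the largest SE of all members at 0.14, with a log2 fold change of 0.026. Without knockdown library 1, the highest of the 6, the value was −0.12. EDEM2, which makes the first cut in the mannose chain, was the highest of the list at 0.18 (SE 0.10, limma adjusted p = 0.578). It had 35.6, 29.2 and 26.7 FPKM in the knockdown libraries, against 25.7, 27.6 and 26.9 FPKM in the control libraries. Knockdown library 1 was far above the rest, and without that library the value was 0.066.

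SELENOS, a selenoprotein of the extraction complex, had 14.0, 12.6 and 12.1 FPKM in the knockdown libraries, against 12.3, 11.5 and 11.3 FPKM in the control libraries. SELENOS had a log2 fold change of 0.13 (SE 0.076, limma adjusted p = 0.578), with knockdown library 3 inside the control range. Its value without knockdown library 1 was 0.074. The other 7 genes of the list, EDEM1, EDEM3, DERL1, DERL2, OS9, ERLEC1 and UFD1, ran from −0.076 to 0.078.

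The 9 genes of the translocon had a median log2 fold change of 0.072, with 5 positive and 4 negative and 0 at an unadjusted p under 0.05. Of all genes tested, 53.1% were positive and 10.6% had such a p. SEC61A1, the pore-forming subunit, had 87.7, 85.6 and 82.4 FPKM in the knockdown libraries, against 78.8, 80.4 and 84.0 FPKM in the control libraries. SEC61A1 had a log2 fold change of 0.072 (95% interval −0.067 to 0.21), and the groups overlapped. SEC61G, the small gamma subunit, was the highest of the list at 0.15 (SE 0.11, limma adjusted p = 0.676). It had 38.4, 30.3 and 30.7 FPKM in the knockdown libraries, against 28.0, 33.6 and 27.8 FPKM in the control libraries, with knockdown library 1 the highest. Without that library the value was 0.042.

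SEC63, a membrane protein that brings BiP to the channel, was the lowest of all members at −0.26 (SE 0.13), with an unadjusted p of 0.0860 and a limma adjusted p of 0.531. It had 7.42, 8.71 and 10.7 FPKM in the knockdown libraries, against 9.90, 11.6 and 10.3 FPKM in the control libraries. Knockdown library 3 lay inside the control range and knockdown library 1 was the lowest. Without knockdown library 1 the value was −0.13, and without knockdown library 3 it was −0.39. The copies SEC63P1 and SEC63P2 are annotated pseudogenes. SEC61B, SEC62 and the 4 translocon-associated SSR genes ran from −0.12 to 0.14.

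The spread over the knockdown libraries moved with exon length. The distance of knockdown library 1 from the median of the other libraries had a Spearman correlation of −0.48 with exon length over the 50 members. The value was −0.27 in knockdown library 2 and 0.46 in knockdown library 3. In the control libraries it lay between −0.075 and 0.31. Over the 10605 genes tested with an exon length it was −0.32, −0.068 and 0.33 in knockdown libraries 1, 2 and 3. The points share their libraries and their normalisation, so these values are descriptions. EDEM2, SEC61G and XBP1, with exon lengths of 1919, 1842 and 3028 bases, were highest in knockdown library 1. SEC63, SEL1L and UGGT2, with 8587, 9559 and 8105 bases, were lowest there. Other members went against the trend in that library. MANF and ERLEC1, with 2383 and 2592 bases, lay below the median of the other libraries, at −0.30 and −0.17. ERN1 and ATF6, with 10864 and 7890 bases, lay above it, at 0.14 and 0.11. The part of exon length in the fold changes of the members was not tested.

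**Figure D5:**
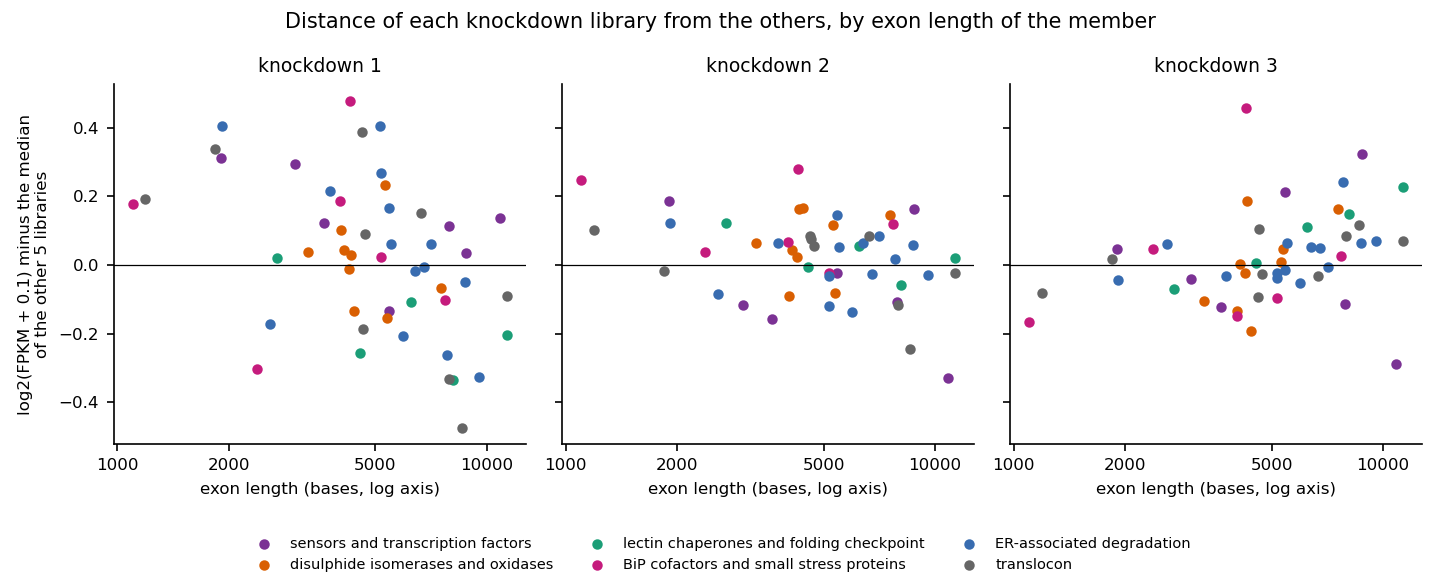
Distance of knockdown libraries 1, 2 and 3 from the median of the other 5 libraries (vertical axis, on log2(FPKM + 0.1)) by exon length in GENCODE release 29 (horizontal axis, bases on a log axis), 1 point per member tested and coloured by role. The points fall with length in knockdown library 1 and climb with length in knockdown library 3, with Spearman correlations of −0.48 and 0.46.

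Other genes of the same routes were counted in the same fit. Of 88 further chaperone, degradation, translocation and glycosylation genes, 85 were tested and 0 passed the adjusted p. At an unadjusted p under 0.05 there were 14 of them, 6 higher and 8 lower in the knockdown, or 16.5%, beside 10.6% of all genes tested. Their median log2 fold change was 0.038. By the fold threshold 3 were higher and 4 were lower, or 3.53% and 4.71%, beside 1.54% and 3.35% of all genes tested. Of the 16 textbook targets of the unfolded protein response, 10 of which are members, 1 was lower by the fold threshold and 0 were higher, with a median of 0.017.

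HSPA5, the gene of BiP and the classic reporter of ER stress, had 220.0, 288.8 and 267.7 FPKM in the knockdown libraries, against 264.7, 221.0 and 272.6 FPKM in the control libraries. The groups covered nearly the same range, each with 1 library far below its other two, and the log2 fold change was 0.031 (95% interval −0.25 to 0.31). HSP90B1, the ER form of HSP90, had 91.8, 105.7 and 117 FPKM in the knockdown libraries, against 117, 114 and 120.1 FPKM in the control libraries. Its log2 fold change was −0.16 (SE 0.091, limma adjusted p = 0.575), with knockdown library 1 the lowest. Without that library the value was −0.071, and without knockdown library 3 it was −0.25. DNAJB9, a BiP cochaperone induced by IRE1, had 6.72, 6.07 and 6.33 FPKM in the knockdown libraries, against 7.59, 9.22 and 7.26 FPKM in the control libraries. All knockdown libraries lay below all control libraries, and the log2 fold change was −0.32 (SE 0.099, unadjusted p = 0.0118, limma adjusted p = 0.299). Without control library 2, the highest, the value was −0.22. With array weights it was also −0.22, and both were short of 1.2-fold.

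Among the further folding enzymes GANAB, the catalytic subunit of glucosidase II, had 150.5, 136 and 134 FPKM in the knockdown libraries, against 95.6, 103 and 111 FPKM in the control libraries. The log2 fold change was 0.44 (SE 0.079), with an unadjusted p of 5.16e-04 and a limma adjusted p of 0.0867. GANAB passed without knockdown library 1 (0.39, limma adjusted p = 0.0232), a fit in which 255 genes passed. With any other library left out its limma adjusted p lay between 0.0932 and 0.436. MBTPS2, a Golgi protease that cuts ATF6 and CREB3, was the next by p at −0.34 (SE 0.094, limma adjusted p = 0.234). It had 3.69, 4.09 and 4.08 FPKM in the knockdown libraries, against 4.74, 5.67 and 4.77 FPKM in the control libraries.

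Of the further degradation genes TMUB2, a ubiquitin-like membrane protein, had 8.88, 7.75 and 7.26 FPKM in the knockdown libraries, against 6.32, 6.17 and 6.54 FPKM in the control libraries. AUP1, which brings an E2 enzyme to the SYVN1 complex, had 49.2, 46.6 and 43.4 FPKM in the knockdown libraries, against 40.7, 36.4 and 39.7 FPKM in the control libraries. Neither group pair overlapped, and the log2 fold changes were 0.32 (SE 0.086, limma adjusted p = 0.223) for TMUB2 and 0.25 (SE 0.073, limma adjusted p = 0.267) for AUP1.

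On the translocation side SPCS3, a subunit of the signal peptidase, had 20.7, 22.5 and 19.4 FPKM in the knockdown libraries, against 26.6, 27.6 and 26.8 FPKM in the control libraries. Its log2 fold change was −0.37 (SE 0.070), with an unadjusted p of 6.82e-04 and a limma adjusted p of 0.0951. SPCS3 passed without knockdown library 1 (−0.37, limma adjusted p = 0.0281), the fit in which 255 genes passed. With any other library left out its limma adjusted p lay between 0.124 and 0.436. EMC2, a subunit of the ER membrane protein insertion complex, had 3.96, 4.77 and 4.64 FPKM in the knockdown libraries, against 5.67, 5.44 and 5.55 FPKM in the control libraries. Its log2 fold change was −0.32 (SE 0.087, limma adjusted p = 0.240), with all knockdown libraries below all control libraries.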

How the data were processed

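Poly(A) RNA was captured by the authors on oligo-dT beads, and the second cDNA strand was U-labelled. The submitters' processing notes name Bowtie2, TopHat and hg38. The read counter, gene models and use of strand were not given in the sources used here. A single table, deposited by the authors, holds FPKM for 11846 genes. Groups were taken from the treatment labels, and the members and lists were chosen with earlier results of these data known. Replicate pairs differed by more than sampling noise (chi-square per degree of freedom 2.86 to 36.4).

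Genes averaging 0.5 FPKM or more were fitted in limma 3.58.1 (R 4.3.3; lmFit, eBayes with trend and robust settings, two-sided) on log2(FPKM + 0.1), knockdown minus control with no covariate. P-values were adjusted by Benjamini-Hochberg over 10813 genes, at 0.05. Whole reads were recovered from the FPKM steps for 11844 of 11846 genes (99.98%, tolerance 0.001 to 0.05 reads). Scripts were tested on simulated data. Per-library values were named for the 12 members with the smallest p, 13 usual reporters of the pathway, the highest and lowest of each role list, HSPA5, HSP90B1, and the 2 smallest p of each further list. Alternatives were other pseudocounts and filters, median-ratio scaling, array weights, plain eBayes, voom on recovered reads, a replicate block and leaving out each library. Protein features were not analysed here.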

Additional observations from a re-analysis of the deposited data

How the results depend on the processing

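Under all 15 alternatives the count of members past the adjusted p was 0. Over all genes it was 14 to 19 under the other pseudocounts, filters, scaling, array weights and voom (19 with voom), 0 with plain eBayes and 0 to 255 without 1 library. Members with an unadjusted limma p under 0.05 numbered between 1 and 11. The count lower at the fold threshold was 0 to 1 when a library was left out (ERN1 without knockdown 1, SEC63 without knockdown 3), and the count higher was 1 to 3 (FICD in each case, with CREB3L2 without knockdown 1, and CREB3 and EDEM2 without knockdown 3). With array weights it was 2 (FICD and CREB3L2). That fit stopped before its tolerance was reached. The median over the members ran from 0.019 to 0.049 without 1 library. Of 539 values of named genes under the alternatives, 509 kept their sign and 2 passed the adjusted p (GANAB and SPCS3, both without knockdown 1). The sign changed for 12 genes, with log2 fold changes from −0.10 (UGGT2) to 0.13 (SDF2L1). With array weights the log2 fold change was 0.034 for XBP1, 0.094 for EIF2AK3, −0.078 for PDIA4, −0.053 for CALR, −0.069 for HYOU1, −0.010 for SDF2L1, −0.075 for CRELD2 and −0.061 for HSPA5. Without 1 library it ran from −0.13 to 0.069 for XBP1, −0.094 to 0.068 for EIF2AK3, −0.031 to 0.066 for PDIA4, −0.00064 to 0.11 for CALR, −0.0033 to 0.079 for CANX, −0.21 to 0.020 for UGGT2, −0.036 to 0.069 for HYOU1, −0.076 to 0.050 for CRELD2, −0.18 to 0.011 for SEL1L, −0.12 to 0.13 for HERPUD1 and −0.063 to 0.14 for HSPA5. The cause of these sign changes was not tested. Deviations of same-numbered libraries had correlations of −0.34, −0.47 and −0.12, none of them positive. With 3 libraries a group these values cannot show whether the samples were paired by design. With the replicate block 1 gene of all passed the adjusted p, 0 members did, 2 members had an unadjusted p under 0.05, 0 were lower and 1 was higher at the fold threshold, and the median was 0.030. With 3 libraries a group and a median SE of 0.080, the largest fold change of a member, 0.47 for FICD, did not pass adjustment over 10813 genes.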
